A study of Mus musculus with 5 samples.

Results

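Mitochondrial ribosomal proteins are encoded by nuclear genes whose symbols begin with Mrpl (large subunit) or Mrps (small subunit) followed by a digit. In the deposited table, 78 genes carried such a symbol, and 75 of them had a mean of at least 1 FPKM (fragments per kilobase of transcript, scaled by the authors to mapped fragments) over the 5 libraries. The minimum used these means only and no difference between libraries, but the gene family was chosen with earlier results of these data known. Of the 3 genes below the minimum, Mrpl21 and Mrpl48 were listed at 0 in every library, and Mrpl23 reached at most 0.806 FPKM. A hyphen stands in place of a value for Mrpl20 after withdrawal of LIF from overexpressing cells and for a second transcript of Mrpl1 at 40 days. This left 73 genes for comparison, 46 of the large subunit, 26 of the small subunit and Mrps36, among 9590 genes of the whole table that passed the same minimum.

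The cells were mouse E14 embryonic stem cells, with the strain given as C57BL/6, and each group was a single library of messenger RNA. Normal cells and cells labelled as overexpressing Hk2 (hexokinase 2) and Pkm2 (a form of pyruvate kinase, from the gene now called Pkm) were grown with LIF, a cytokine that keeps such cells from differentiating. Each kind was also kept 24 hours without LIF, after which LIF was added again; these are called the withdrawal libraries here. The fifth library is of overexpressing cells kept 40 days without LIF, and no normal cells were labelled for that time. The labels give neither the vector nor the number of clones, so what holds for the 3 overexpressing libraries may hold for 1 clone. Values below are in the order normal with LIF, overexpressing with LIF, normal after withdrawal, overexpressing after withdrawal, and overexpressing at 40 days.

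Hk2 was at 76.2, 98.6, 49.7, 59.0 and 29.0 FPKM, and Pkm was at 510, 567, 611, 564 and 495 FPKM. Neither gene differed 2-fold between the cell types in either culture, so the overexpressing cells are named here by their label only. All 10 embryonic stem cell markers were at 1 FPKM or more in every library, with a summed level of 3027 to 3606 FPKM in the other 4 libraries and 2177 FPKM at 40 days. Single markers differed more than this sum. Nanog was at 150, 183, 59.3, 54.5 and 29.6 FPKM, and Klf4 at 53.1, 63.5, 5.48, 6.66 and 12.3 FPKM. Esrrb and Zfp42 were also lower in both withdrawal libraries than with LIF, and lowest at 40 days. Utf1 was higher in both withdrawal libraries than with LIF, and Lin28a was highest at 40 days. The summed level of 8 markers of extraembryonic endoderm was 3.23 to 5.34 FPKM in the other 4 libraries and 119 FPKM at 40 days, where Sox17 and Afp were at 0. That of 6 trophoblast markers was 12.3 to 29.1 FPKM and 79.4 FPKM at 40 days, where Elf5 was at 0.0960 FPKM. Most of this 40 day sum was Krt8 and Krt18, at 21.6 and 54.2 FPKM. Tfap2c was at 12.1, 4.79, 2.47, 0.491 and 1.76 FPKM, highest in normal cells with LIF. Eomes was highest in the overexpressing withdrawal library, at 3.58 FPKM. Cdx2 was highest at 40 days, but at only 0.294 FPKM. The summed level of 8 fibroblast or feeder markers was at most 5.26 FPKM in any library. The deposited FPKM summed to 272294 to 297064 per library. At most 22% of low values lay within 0.03 of a whole number of fragments, so the number of fragments behind a value is unknown.

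Mitochondria keep their own ribosomes, which translate the few messages of the mitochondrial genome into core subunits of the respiratory chain and the ATP synthase. The ribosomal RNAs come from mitochondrial DNA, whereas every protein of the mammalian mitoribosome is encoded in the nucleus, made in the cytosol and imported. Some of these proteins have counterparts in bacterial ribosomes, and others arose with the mitochondrion. The balance of glycolysis and oxidative metabolism in embryonic stem cells differs with their state, and neither was measured here.

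Most of the mitoribosomal genes were present at moderate, similar levels and varied little from library to library. The 69 genes above 0 everywhere summed to 3142, 2871, 2783, 2860 and 2526 FPKM, highest in normal cells with LIF and lowest at 40 days. These sums were 1.06%, 1.05%, 0.954%, 1.04% and 0.926% of all FPKM in the library. The ratio of a gene's highest to its lowest library had a median of 1.40 over these genes, with quartiles of 1.30 and 1.56, beside 1.86 over the 8841 genes of the table that were above 0 everywhere. It was under 1.5 for 49 of 69 (71.0%), against 29.0% of all genes. Among genes with a mean of at least 20 FPKM, the median ratio was 1.38 for 57 mitoribosomal genes and 1.55 for 2832 genes, a smaller gap than over all levels. In bulk RNA, a change in the number of cells of a kind and a change in RNA per cell cannot be told apart.

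**Figure D1:**
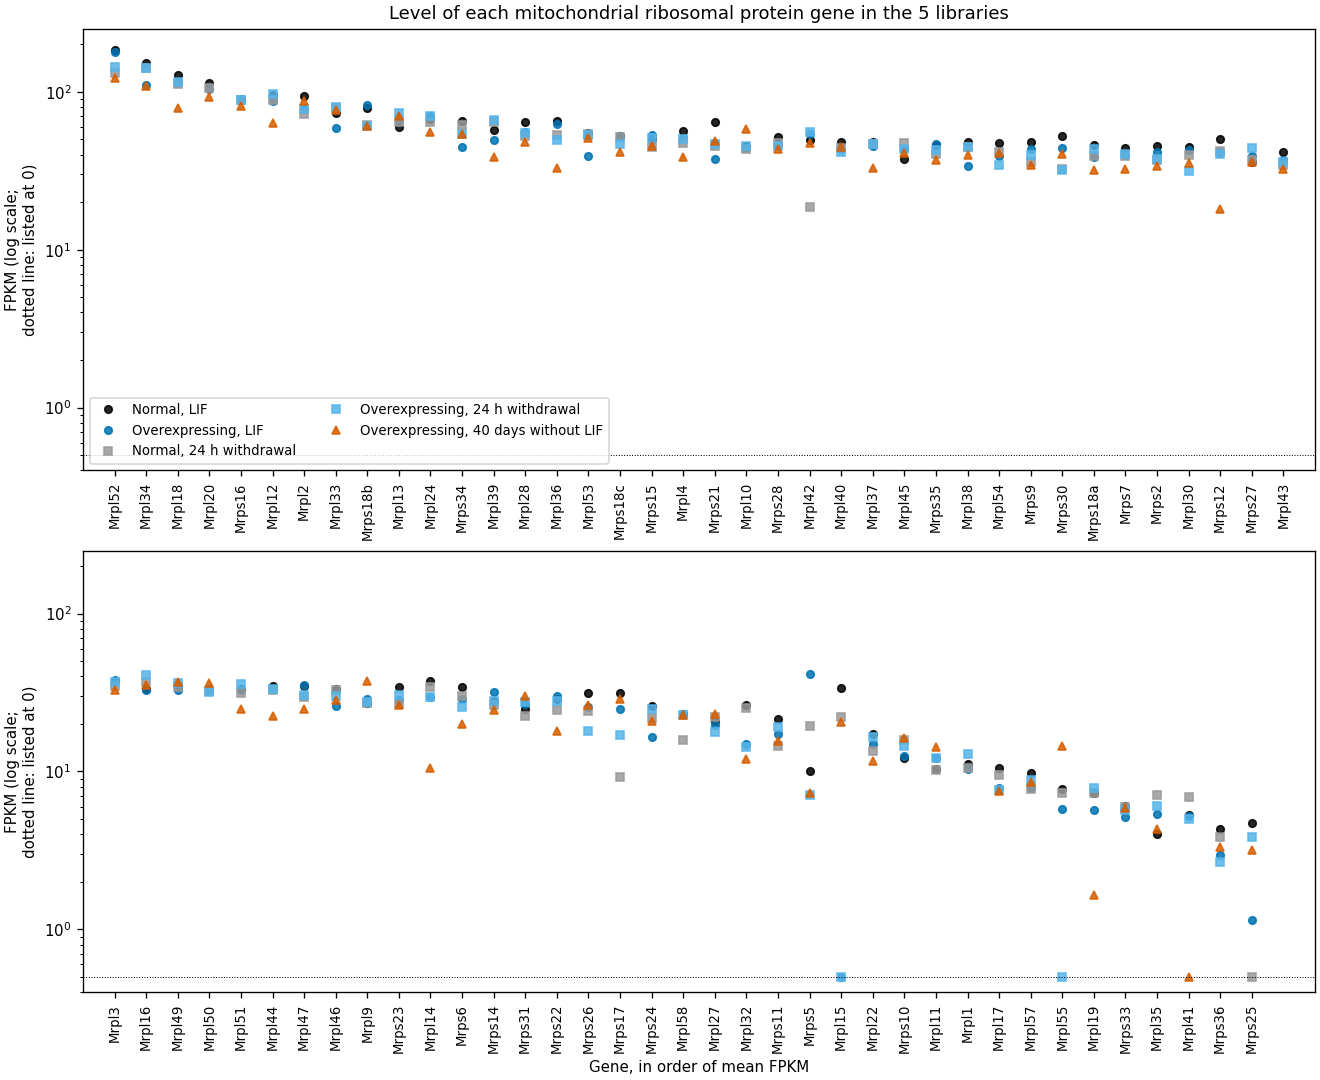
Level in FPKM, on a log axis, of the 75 mitochondrial ribosomal protein genes in order of mean level, with a symbol for each of the 5 libraries and genes listed at 0 drawn on the dotted line. The symbols of most genes lie close together, while Mrps5, Mrpl15, Mrpl55, Mrpl41, Mrpl14, Mrps17, Mrpl42, Mrps12, Mrpl19 and Mrps25 have libraries far from the rest.

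Mrpl52, a protein of the large subunit without a bacterial counterpart, had the highest mean, with 183, 178, 132, 144 and 123 FPKM. Its gene lies at chr14:55045746-55048587 on the plus strand of mm9. Mrpl34, a large-subunit protein with a bacterial counterpart, was at 152, 110, 141, 141 and 109 FPKM. Both were highest in normal cells with LIF and lowest at 40 days. Mrpl18, of the central protuberance of the large subunit, was at 127, 115, 113, 115 and 79.4 FPKM, again lowest at 40 days; its exons overlap those of Tcp1, and the counting is not stated to use strand. Mrpl20, which helps to fold the large ribosomal RNA in bacteria, was at 114, 104, 106 and 92.3 FPKM in the libraries with a value, with the overexpressing withdrawal library missing.

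The steadiest gene of all was Mrps16, which encodes a small-subunit protein with a bacterial counterpart (chr14:21210453-21212777, minus strand, mm9). It was at 89.1, 89.6, 89.3, 88.3 and 81.0 FPKM, a highest-to-lowest ratio of 1.11. Mrpl49, Mrpl50 and Mrpl40, all of the large subunit and specific to mitochondria, followed with ratios of 1.13, 1.14 and 1.15. Mrpl3, a core protein of the large subunit, was at 37.7, 38.0, 35.0, 36.8 and 32.8 FPKM. At 40 days, where the endoderm markers above were highest, Mrpl49 and Mrpl50 had their highest values and Mrps16 and Mrpl3 their lowest.

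Mrpl1, a large-subunit protein with a bacterial counterpart, was at 11.2, 10.4, 10.5 and 12.8 FPKM in the libraries without a hyphen. These values lie close together. At 40 days its expressed transcript was at 9.82 FPKM, the lowest value of that transcript. The transcript with the hyphen was listed at 0 in the other libraries. At the low end, Mrps33 was at 6.07, 5.13, 5.98, 5.73 and 5.90 FPKM, and its ratio of 1.18 was among the smallest although its level was low. Mrpl35, a counterpart of a bacterial large-subunit protein, was at 4.04, 5.38, 7.13, 6.03 and 4.31 FPKM. Mrps36 was at 4.33, 2.97, 3.85, 2.66 and 3.34 FPKM; the protein is now known as a component of the 2-oxoglutarate dehydrogenase complex and not of the ribosome, in spite of its symbol. Mrps25 and Mrpl41 were also among the 5 lowest and were listed at 0 in a library each, as given below.

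Several symbols differ from the place of the protein or form families. Mrps30, which sits in the large subunit in mammals, was at 52.5, 44.0, 32.6, 31.9 and 40.1 FPKM, with both withdrawal libraries below the other libraries. Mrpl58, a peptidyl-tRNA hydrolase built into the large subunit, was at 23.0, 23.0, 15.8, 22.8 and 22.8 FPKM, and stood apart in normal cells after withdrawal. The Mrps18 paralogs are copies of a single bacterial protein that occupy different sites of the ribosome, and all were well expressed. Mrps18a, the copy of the large subunit, was at 45.8, 38.5, 39.4, 43.5 and 32.1 FPKM. Mrps18b was at 78.6, 82.5, 61.8, 60.9 and 60.9 FPKM, higher in both libraries kept with LIF than in the libraries without continuous LIF. Mrps18c, the closest counterpart of the bacterial protein, was at 52.6, 52.5, 51.9, 46.5 and 41.3 FPKM. The order Mrps18b, Mrps18c, Mrps18a held in every library.

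Promoter sequences were compared because the transcription factor NRF1 (nuclear respiratory factor 1) and the ETS-family factor GABP (also called NRF2) are the best-known activators of nuclear genes for mitochondrial proteins. RefSeq promoters of assembly GRCm38.p6 were given for 66 of the 75 genes, in 69 windows of the 250 bases before a transcription start. Both strands were searched for fixed letters, and the letters of no motif contain those of another. The NRF1 letters (GCGCA, any base, then GCGC) were found in 14.5% of the windows, against 3.74% of 32851 windows of all genes. The windows of all genes were not matched to those of the mitoribosomal genes in level or base content. The ETS letters CCGGAAG, which GABP and other ETS factors bind, were found in 24.6%, against 6.91%. For YY1 (AA, any base, then ATGGCGG) the shares were 1.45% and 0.521%, for the E-box of Myc and other factors (CACGTG) 10.1% and 6.02%, for SP1 (GGGCGG) 49.3% and 32.7%, and for CCAAT 40.6% and 33.8%. Some genes have several overlapping windows, and those of Mrpl2 hold the same E-box, SP1 and CCAAT letters. Counted by gene, 10, 17, 1, 5, 31 and 25 of the 66 held NRF1, ETS, YY1, E-box, SP1 and CCAAT letters. The E-box was thus in 7 windows but 5 genes. These shares describe letters, not binding, and are not tested. The 4 windows below, given 5′ to 3′ on the gene's strand, are those of a gene with both motifs, a gene with NRF1 letters alone, the gene with the highest level and the steadiest gene. Capitals mark NRF1 or ETS letters on either strand.
Mrpl17: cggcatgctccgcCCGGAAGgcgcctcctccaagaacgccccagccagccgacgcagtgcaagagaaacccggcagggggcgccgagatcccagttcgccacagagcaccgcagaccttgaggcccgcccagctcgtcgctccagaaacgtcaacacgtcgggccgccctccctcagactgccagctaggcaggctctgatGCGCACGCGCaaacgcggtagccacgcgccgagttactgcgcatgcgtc
Mrpl39: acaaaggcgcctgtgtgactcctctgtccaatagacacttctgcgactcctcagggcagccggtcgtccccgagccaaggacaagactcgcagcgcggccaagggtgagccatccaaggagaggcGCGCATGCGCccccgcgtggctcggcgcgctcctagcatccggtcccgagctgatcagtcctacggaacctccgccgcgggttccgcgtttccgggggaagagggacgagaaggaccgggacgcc
Mrpl52: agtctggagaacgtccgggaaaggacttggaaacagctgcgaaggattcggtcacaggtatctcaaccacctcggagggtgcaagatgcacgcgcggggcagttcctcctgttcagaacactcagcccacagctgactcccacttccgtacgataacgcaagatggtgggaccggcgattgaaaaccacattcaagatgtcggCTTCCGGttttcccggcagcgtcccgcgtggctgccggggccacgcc
Mrps16: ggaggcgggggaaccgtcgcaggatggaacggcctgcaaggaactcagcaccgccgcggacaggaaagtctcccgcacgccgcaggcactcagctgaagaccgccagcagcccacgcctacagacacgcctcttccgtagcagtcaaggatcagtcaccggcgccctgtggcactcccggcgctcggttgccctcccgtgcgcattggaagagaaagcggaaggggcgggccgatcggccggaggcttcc
The windows lie at chr7:105811088-105811337 (minus strand), chr16:84735245-84735494 (minus strand), chr14:54426659-54426908 (plus strand) and chr14:20393635-20393884 (minus strand) of GRCm38.p6. Mrpl17 holds both motifs, Mrpl39 holds a palindromic match to the NRF1 letters and Mrpl52 holds an ETS match on the opposite strand. The Mrps16 window holds neither, although a window at a second start of that gene holds the ETS letters. The genes differed in behaviour as well: Mrpl17 was at 10.6, 7.83, 9.45, 7.61 and 7.51 FPKM, and Mrpl39 was at 57.3, 49.4, 64.1, 66.1 and 38.6 FPKM, lowest at 40 days.

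The comparison of overexpressing with normal cells asks whether the labelled change in glycolytic enzymes goes with a change in the transcriptome. Each ratio below is a difference in log2(FPKM + 1) between 2 libraries, has no replicate check and is too small for genes at low FPKM. With LIF, most mitoribosomal genes were slightly lower in the overexpressing library: the median difference was -0.14, beside -0.044 for all genes, and 52 genes were below 0 and 21 above. With each library scaled to the same total FPKM the median was -0.015 and the split was 39 below and 34 above, and with quantile normalization 41 were below and 32 above. At least 2-fold higher was Mrps5 alone (1 of 73, background 4.11%, and 8.32% for 1.5-fold higher, where it was again alone), and at least 2-fold lower were Mrpl15 and Mrps25 (2 of 73, background 5.32%). At 1.5-fold, Mrpl32, Mrps21 and Mrps24 were lower as well, making 5 of 73 against 11.7% of all genes. Mrps21, of the small subunit, was at 64.3, 37.4, 45.5, 46.5 and 48.7 FPKM, a difference of -0.77 with LIF, and the normal library with LIF stood above the other 4. Mrps24 was at 25.8, 16.6, 21.7, 25.02 and 20.9 FPKM, a difference of -0.61, and its exons overlap those of Urgcp.

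After withdrawal the median difference between the cell types was 0.026, beside -0.021 for all genes, with 42 genes above 0 and 31 below. With equal total FPKM the split was 52 above and 21 below. Mrps25 and Mrpl42 were at least 2-fold higher in the overexpressing library (2 of 73, background 4.19%), and Mrpl15, Mrpl55 and Mrps5 were at least 2-fold lower (3 of 73, background 5.18%). At 1.5-fold, Mrps17 was higher as well (3 of 73, background 8.39%) and Mrpl32 lower (4 of 73, background 11.8%). Mrpl42, a mitochondria-specific protein of the large subunit, was at 49.4, 54.3, 18.7, 56.01 and 47.2 FPKM. Its difference of 1.54 came with a low value in the normal withdrawal library, while the other 4 libraries lay within 47.2 to 56.01 FPKM. Mrps17, an RNA-binding protein of the small subunit, had its lowest value in the same library, with 31.6, 24.7, 9.25, 17.0 and 28.7 FPKM, a difference of 0.82.

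**Figure D2:**
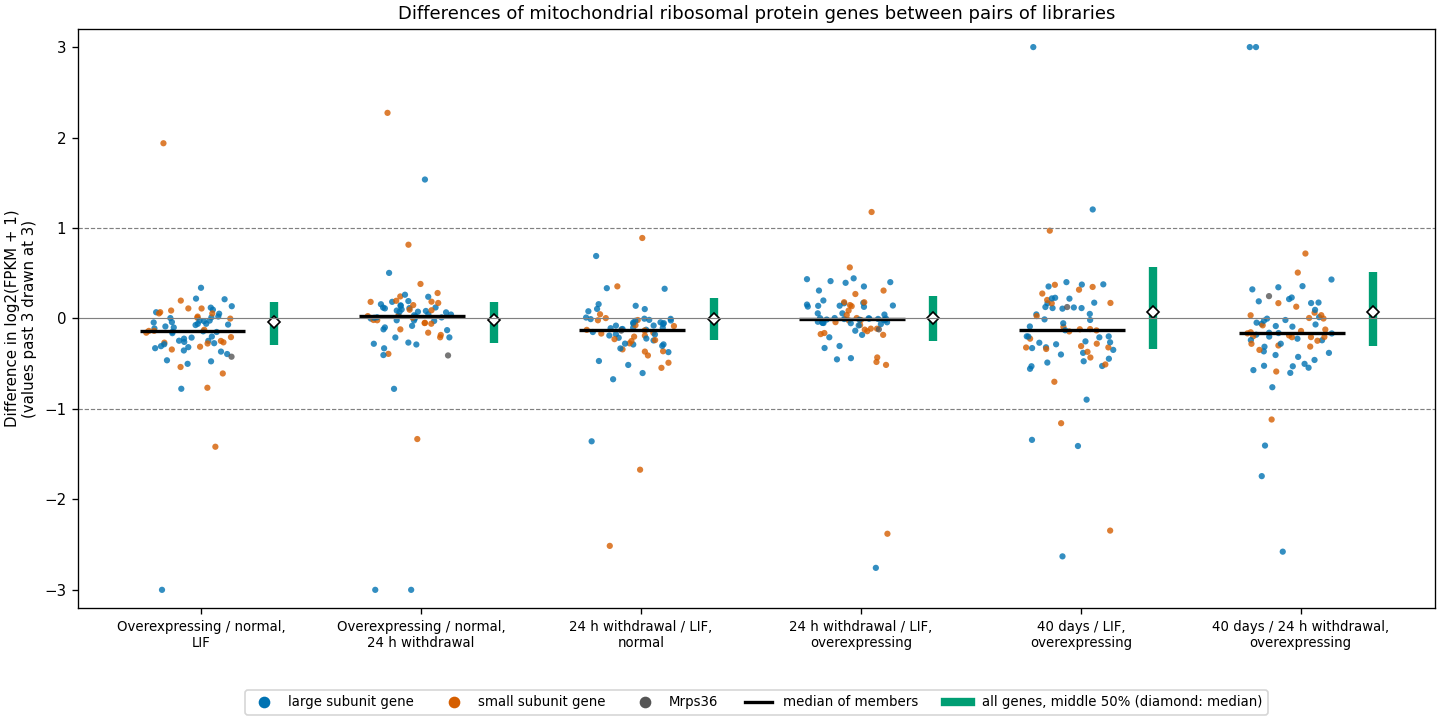
Difference in log2(FPKM + 1) for each of the 73 genes in 6 pairs of libraries, coloured by subunit, with the median of these genes (black line) beside the median and middle 50% of all 9590 genes (diamond and green bar). Values past 3 are drawn at 3 and dashed lines mark 2-fold. Most points lie within 2-fold in every pair. The median of the mitoribosomal genes was below that of all genes in every pair except overexpressing against normal after withdrawal.

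Among the 69 genes above 0 in every library, only Mrpl32 was at least 1.5-fold lower in overexpressing cells in both cultures. It encodes a large-subunit protein whose cleavage by the m-AAA protease lets it join the ribosome, and lies at chr13:14702568-14705304 on the minus strand of mm9 with no other gene over its exons. Its level was 26.2, 14.9, 25.4, 14.4 and 12.02 FPKM, so both normal libraries lay above all 3 overexpressing libraries. The difference between the cell types was -0.78 with LIF and -0.78 after withdrawal. Both normal libraries are single libraries of a culture, and whether Mrpl32 would differ between further cultures was not measured.

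The other gene at least 1.5-fold lower in both cultures was Mrpl15, a core protein of the large subunit. It was at 34.0, 0, 22.0, 0 and 20.7 FPKM, so the overexpressing libraries with LIF and after withdrawal were listed at 0 while the overexpressing library at 40 days was not. Both of its expressed transcripts followed this pattern. A gene of every mitoribosome listed at 0 in cells with the other mitoribosomal genes at their usual levels can be a failed estimate. Genes listed at 0 are kept in the counts here, where Mrpl15 passes 1.5-fold and 2-fold through such values, but the size of its fold is not read. These 2 genes are 2.74% of the 73, against 3.83% of all genes lower by 1.5-fold in both cultures, and 0 mitoribosomal genes were higher by 1.5-fold in both, against 1.96%. In sign, 38 genes differed the same way in both cultures (52.1%), against 62.0% of all genes.

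**Figure D3:**
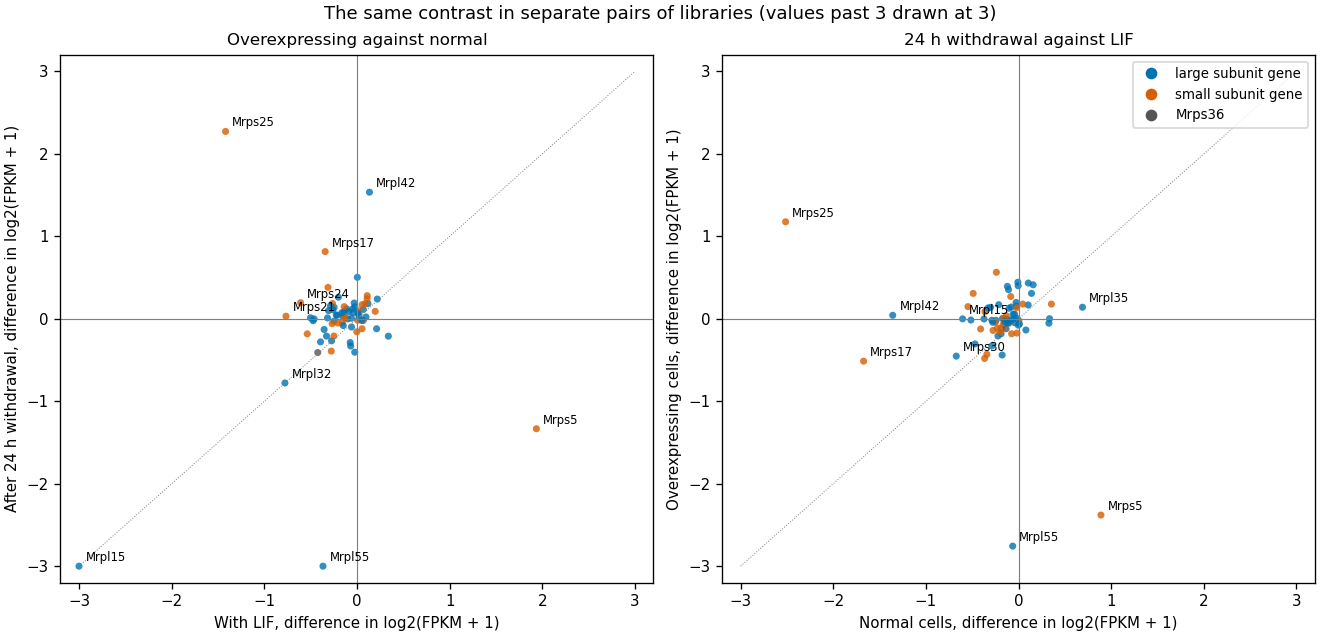
Difference in log2(FPKM + 1) of each gene in separate pairs of libraries under the same contrast: overexpressing against normal with LIF and after withdrawal (left), and withdrawal against LIF in normal and overexpressing cells (right). Mrpl32 lies on the dotted line of equal differences at -0.78 in the left plot, whereas Mrps5 and Mrps25 have opposite signs in both plots.

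A limma fit over the 4 libraries, with cell type and culture as terms, gave an error for these differences from 1 residual degree of freedom. Such a fit can give few or no calls, so a count of 0 called does not show that genes were alike. It called 0 of 9590 genes for cell type at an adjusted p of 0.05, with 918 genes at an unadjusted p under 0.05. At that unadjusted level 4 mitoribosomal genes were lower in overexpressing cells and 0 were higher, against 6.41% and 3.16% of all genes. Mrpl32 differed by -0.78 ± 0.090 (SE; limma adjusted p = 0.512). Mrps26, of the small subunit, differed by -0.33 ± 0.091 and Mrpl54, of the large subunit, by -0.27 ± 0.074 (limma adjusted p = 0.520 for both). The fourth was Mrpl15, for which the estimate rests on libraries listed at 0. Mrps26 was at 31.4, 25.8, 24.2, 18.2 and 26.3 FPKM and shares exon sequence with 4930473A02Rik, while Mrpl54 was at 47.7, 39.3, 41.7, 34.5 and 40.7 FPKM with no overlapping gene. In both genes each overexpressing library lay below the normal library of its culture, and none of these differences passed the adjusted threshold.

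The withdrawal libraries, taken after 24 hours without LIF and its return, were set against those kept with LIF throughout. In normal cells the median difference was -0.13, beside -0.0055 for all genes, with 60 genes below 0 and 13 above; with equal total FPKM 52 were below and 21 above, and with quantile normalization 49 and 24. This comparison and that of the cell types with LIF share the normal library with LIF, in which 39 of the 69 genes above 0 everywhere were highest, beside 22.1% of all genes. No gene was 2-fold higher (0 of 73, background 4.62%) and 3 were 2-fold lower, namely Mrps25, Mrps17 and Mrpl42 (background 5.51%). At 1.5-fold, Mrps5 and Mrpl35 were higher (2 of 73, background 9.91%) and 5 genes were lower (background 10.7%). In overexpressing cells the median was -0.0063, beside 0.0042, with 39 genes below 0, 33 above and Mrpl15 at 0 in both libraries. Mrps25 was 2-fold higher (1 of 73, background 5.79%) and Mrpl55 and Mrps5 were 2-fold lower (2 of 73, background 6.07%), and the same genes passed 1.5-fold (backgrounds 11.3% and 12.1%). By subunit, the median in normal cells was -0.10 for the 46 large-subunit genes and -0.19 for the 26 small-subunit genes; the difference between the subunits was not tested.

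No mitoribosomal gene passed 1.5-fold the same way in both cell types, against 4.46% of all genes for lower and 3.37% for higher. At 1.2-fold, 6 genes were lower in both: Mrpl36, Mrpl52, Mrps17, Mrps18b, Mrps26 and Mrps30. They are 8.22% of the 73, beside 11.2% of all genes, and 0 were higher in both, beside 10.3%. In the limma fit 0 of 9590 genes were called for culture (1154 at an unadjusted p under 0.05). At the unadjusted level, 5 mitoribosomal genes were lower after withdrawal and 0 higher, against 6.48% and 5.56% of all genes. Mrps30 had the largest of these differences, -0.56 ± 0.10 (SE; limma adjusted p = 0.345), followed by Mrps26 with -0.42 ± 0.091 (limma adjusted p = 0.363). Mrpl52, Mrps18b and Mrpl36 differed by -0.39 ± 0.087, -0.39 ± 0.074 and -0.31 ± 0.071 (limma adjusted p = 0.378, 0.350 and 0.388). For each of these genes both withdrawal libraries lay below both libraries kept with LIF, which for Mrps30 meant 32.6 and 31.9 FPKM against 52.5 and 44.0 FPKM.

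At 40 days without LIF, the mitoribosomal genes were on balance a little lower than in the same cells with LIF, while the table as a whole had more genes higher than lower. The median difference from the LIF library was -0.13 for the 73 genes and 0.076 for all genes, with 45 mitoribosomal genes below 0 and 28 above. From the withdrawal library it was -0.16 and 0.072, with 51 below and 22 above. The 2 comparisons share the 40 day library. Among genes with a mean of at least 20 FPKM the medians were closer together, at -0.20 for 57 mitoribosomal genes and -0.095 for 2889 genes against LIF, and -0.16 and -0.11 against withdrawal. Of the 69 genes above 0 everywhere, 35 had their lowest value at 40 days, against 28.4% of all genes, and 39 had their highest in normal cells with LIF, as given above. The first count was 30, 37 and 34 under equal total FPKM, median-ratio scaling and quantile normalization, beside 25.2%, 31.6% and 35.0% of all genes, and the second was 25, 36 and 23, beside 14.3%, 20% and 17.3%. The 40 day library is also the library with the highest summed endoderm markers and the highest Krt8 and Krt18. The time without LIF and the makeup of that single library cannot be told apart.

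Against LIF, 5 genes were at least 2-fold lower at 40 days, namely Mrpl41, Mrps5, Mrpl14, Mrpl19 and Mrps12 (background 8.31%), and Mrpl15 and Mrpl55 were 2-fold higher (2 of 73, background 14%). Against withdrawal, Mrpl41, Mrpl19, Mrpl14 and Mrps12 were 2-fold lower (4 of 73, background 5.78%), and Mrpl15 and Mrpl55 again 2-fold higher (background 12.1%). At 1.5-fold, 7 genes were lower and 3 higher in each comparison, beside 15.7% and 24.5% of all genes against LIF and 13.1% and 22.5% against withdrawal. The share of higher genes was smaller among the 2889 genes with a mean of at least 20 FPKM. Of these, 528 were lower and 373 higher against LIF, and 453 and 322 against withdrawal. Of the 57 mitoribosomal genes at that level, 4 were lower and 0 higher against LIF, and 5 and 1 against withdrawal. Of the genes 2-fold higher, Mrpl15 was listed at 0 in both earlier overexpressing libraries and Mrpl55 in the withdrawal library, while Mrpl55 against LIF was at 14.6 against 5.76 FPKM. The third gene at 1.5-fold was Mrps25 against LIF, at 3.19 against 1.14 FPKM, and Mrps17 against withdrawal, at 28.7 against 17.0 FPKM.

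Mrpl14 lies at the face of the large subunit that meets the small subunit, where the assembly factor Malsu1 binds it. It was at 37.7, 29.8, 34.5, 29.7 and 10.6 FPKM, so the 40 day library was below the other 4, which lay within 29.7 to 37.7 FPKM. The difference was -1.41 from the LIF library. The gene (chr17:45823271-45835444, plus strand, mm9) shares exon sequence with Tmem63b. Malsu1 itself was at 24.5, 23.4, 17.4, 22.7 and 17.6 FPKM, where the 40 day value did not stand apart.

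Mrps12 is part of the decoding centre of the small subunit and lies at chr7:29524660-29526839 on the minus strand of mm9 with no gene over its exons. It was at 50.3, 41.6, 42.1, 40.4 and 18.1 FPKM, a difference of -1.16 from LIF and -1.12 from withdrawal. The 40 day library was again below the other 4, which spanned 40.4 to 50.3 FPKM. Mrpl19, of the interface between the subunits, was at 7.31, 5.72, 7.29, 7.88 and 1.65 FPKM, a difference of -1.34 from LIF and -1.74 from withdrawal; its exons overlap AW146020. Mrpl41, specific to mitochondria, was at 5.29, 5.19, 6.90, 4.97 and 0 FPKM, so it is counted as 2-fold lower through a library listed at 0, and the size of its fold is not given.

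Mrpl36, a small zinc-binding protein of the large subunit, was at 64.9, 62.2, 53.0, 49.4 and 32.9 FPKM, a difference of -0.90 from LIF. Mrps22, a mitochondria-specific small-subunit protein, was at 29.0, 30.1, 24.6, 27.8 and 18.2 FPKM, a difference of -0.70. Mrpl12, of the flexible stalk that recruits translation factors, was at 95.2, 88.1, 88.6, 96.4 and 63.2 FPKM, a difference of -0.60 from withdrawal. Each had its lowest value at 40 days. The opposite was seen for Mrpl10, the base of the same stalk, with 45.1, 43.8, 43.2, 45.6 and 58.2 FPKM, and for Mrpl9, with 27.0, 29.0, 27.0, 27.4 and 37.3 FPKM. Both were highest at 40 days, so the genes did not move as a block.

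**Figure D4:**
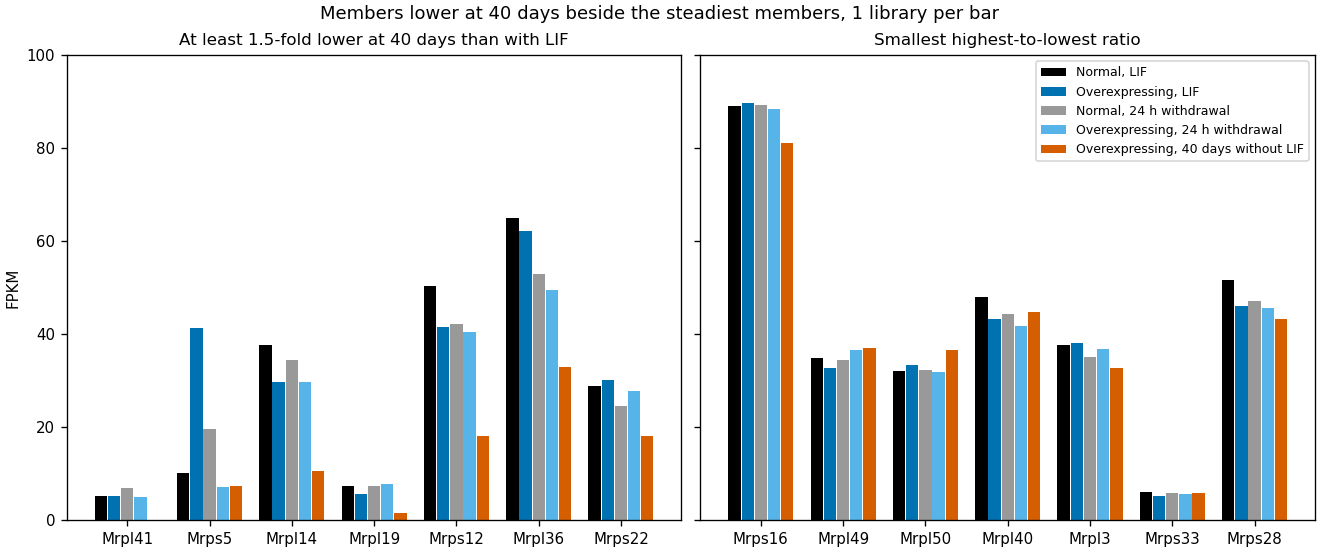
FPKM in each of the 5 libraries (1 bar per library) for the 7 genes at least 1.5-fold lower at 40 days than with LIF in overexpressing cells (left) and for the 7 genes with the smallest highest-to-lowest ratio (right). The 40 day bar is the lowest of the 5 for Mrpl14, Mrpl19, Mrps12, Mrpl36 and Mrps22, at 0 for Mrpl41, and level with the withdrawal bar for Mrps5.

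A few genes jumped between libraries in ways that no label follows. Mrps5, of the small subunit near the entry of the messenger, was at 10.1, 41.4, 19.5, 7.15 and 7.35 FPKM. It was higher in overexpressing cells with LIF and lower after withdrawal, and its single transcript shares no exon with another gene. Mrpl55 was at 7.71, 5.76, 7.34, 0 and 14.6 FPKM, listed at 0 in the overexpressing withdrawal library. Mrps25, whose exons overlap Nr2c2, was at 4.71, 1.14, 0, 3.83 and 3.19 FPKM. In all, 4 of the 73 genes were listed at 0 in a library, against 749 of 9590 genes, and 25 of the 75 share exon sequence with another gene; Mrpl46 and Mrps11, which lie head to head, overlap each other. The kit does not mark strand.

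Mitoribosomal proteins with other names are counted apart. Dap3, a GTP-binding protein of the small subunit, was at 4.81, 5.66, 3.30, 2.95 and 14.2 FPKM, a difference of 1.19 from LIF and 1.95 from withdrawal at 40 days. It was highest at 40 days, where most Mrpl and Mrps genes were lower. Ptcd3, a pentatricopeptide protein of the small subunit, was at 47.2, 64.7, 50.6, 50.8 and 57.1 FPKM. Chchd1 stayed within 68.9 to 83.5 FPKM, Aurkaip1 within 92.7 to 121 FPKM and Gadd45gip1 within 34.1 to 49.96 FPKM.

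Of 23 genes for factors that assemble the mitoribosome or modify its RNA, 19 passed the minimum, and their median difference at 40 days was -0.0088 against LIF and -0.27 against withdrawal, beside 0.076 and 0.072 for all genes. At 40 days against LIF, Tfb1m was 2-fold higher (1 of 19, background 14%) and Trmt61b and Rbfa 2-fold lower (2 of 19, background 8.31%), with Trmt61b listed at 0. Tfb1m, which methylates the small ribosomal RNA, was at 9.46, 2.53, 2.62, 14.7 and 14.1 FPKM. Rbfa, a maturation factor of the small subunit, was at 36.0, 52.9, 30.6, 38.3 and 17.6 FPKM, lowest at 40 days. Mettl17, another small-subunit factor, was at 5.67, 8.97, 13.8, 16.8 and 10.5 FPKM, lowest in normal cells with LIF. Mterf4, which acts in large-subunit assembly, was at 9.51, 8.28, 9.59, 4.22 and 9.43 FPKM, with the overexpressing withdrawal library apart from the rest.

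Of 14 mitochondrial translation factors 13 passed the minimum. After withdrawal in overexpressing cells their median difference was -0.29, with 12 of 13 below 0 and 2 of them, Mtif3 and Rmnd1, 2-fold lower (background 6.07%) and listed at 0. Of all 9590 genes, 4656 were below 0 in that comparison, with a median of 0.0042. In normal cells 11 of 13 were below 0, with a median of -0.12, beside 4882 of all genes and a median of -0.0055. Mtif2, the initiation factor, was at 10.4, 12.2, 12.7, 6.35 and 7.10 FPKM, Guf1, an elongation factor, at 2.46, 2.75, 2.98, 1.24 and 4.78 FPKM, and Mrrf, the recycling factor, at 6.55, 7.19, 6.37, 4.72 and 8.56 FPKM. These 3 genes had their lowest value in the overexpressing withdrawal library. Gfm1, an elongation factor, stayed within 32.5 to 35.1 FPKM. Tufm, the mitochondrial elongation factor Tu, was listed at 0 in the normal withdrawal library and at 40 days and was at 2.49 to 8.39 FPKM otherwise.

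The 16 mitochondrial aminoacyl-tRNA synthetases that passed, of 17, had a median difference of 0.12 at 40 days against LIF, beside 0.076 for all genes. Of the 16, 10 were above 0 and 6 below, beside 5244 and 4292 of all 9590 genes. None was 2-fold different (0 of 16, background 14% for higher and 8.31% for lower). Lars2, which charges the leucine tRNAs, was at 4.23, 14.6, 36.6, 21.8 and 24.3 FPKM and was lowest in normal cells with LIF. Fars2, for phenylalanine, was at 4.93, 1.71, 6.97, 6.20 and 4.17 FPKM and Pars2, for proline, at 4.26, 3.27, 1.52, 3.14 and 3.64 FPKM. Aars2, for alanine, was at 16.7, 15.6, 11.9, 12.1 and 7.46 FPKM, lowest at 40 days.

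For mitochondrial DNA transcription and RNA stability, all 15 genes passed, with a median of -0.097 at 40 days against LIF, beside 0.076 for all genes, and 8 genes below 0. Elac2, which cuts the trailing end of tRNA precursors, was at 35.2, 11.1, 5.69, 12.7 and 33.9 FPKM, with normal cells with LIF and the 40 day library above the other libraries. Ssbp1, the single-stranded DNA-binding protein of mitochondria, was at 19.3, 21.2, 18.8, 14.3 and 8.30 FPKM. Slirp, an RNA-binding partner of Lrpprc, was listed at 0 at 40 days and was at 158 to 168 FPKM otherwise, while Lrpprc itself was at 36.2 FPKM at 40 days. Tfam, which packages mitochondrial DNA, was at 25.1, 29.2, 24.6, 30.6 and 32.7 FPKM. Of 10 nuclear regulators 7 passed, and 6 of the 7 were below 0 at 40 days against LIF, with a median of -0.52 and 0 of them 2-fold lower (background 8.31%). Of all 9590 genes, 4292 were below 0, with a median of 0.076, and of the 2889 genes with a mean of at least 20 FPKM, 1637 were below 0. Among these, Pprc1, a coactivator of NRF1, was at 50.8, 42.4, 40.0, 52.6 and 25.7 FPKM, Myc at 35.9, 36.1, 53.8, 48.8 and 24.3 FPKM, and Gabpa, the DNA-binding part of GABP, at 25.03, 30.2, 23.0, 28.9 and 20.8 FPKM. Nrf1, the gene of the factor NRF1, was at 17.0, 11.5, 9.92, 0 and 6.61 FPKM, so it was listed at 0 in the overexpressing withdrawal library. Mycn was at 57.2, 27.5, 49.0, 35.7 and 39.1 FPKM, higher in both normal libraries than in the 3 overexpressing libraries.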

How the data were processed

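Messenger RNA of 5 libraries, 1 per group, was prepared with a TruSeq RNA kit and sequenced, as the labels' protocols state. The authors deposited FPKM per RefSeq transcript, made with TopHat2 2.0.7, Cufflinks 2.0.2 and the genome build mm9, per the submitters' processing notes; the handling of fragments with several matches was not given in the sources used here. Of 28698 transcripts, 28066 were paired with symbols through RefSeq (GRCm38.p6, names only) and summed per gene, giving 22267 genes; 337 with a hyphen in any library were left out. Coordinates are from GENCODE vM1 on mm9. Genes with a mean of at least 1 FPKM were compared as log2(FPKM + 1). With 1 library per group, 2-fold and 1.5-fold differences were counted without a test. Limma 3.58.1 (R 4.3.3, eBayes with trend, Benjamini-Hochberg) was fitted to 4 libraries with cell type and culture as terms. It was also run on simulated data, and the outcome of that run is not given here. Its residual is the interaction together with library noise, with 1.46 prior degrees of freedom, so a p-value measures the spread between these libraries only. The members and gene lists were chosen with earlier results of these data known. Genes were named by rule: the 5 highest and lowest means, differences past 2-fold, genes at 0 or with a hyphen, genes different the same way in both pairs, the Mrps18 paralogs, symbols that differ from the protein's place, and up to 4 genes of each other list by size of difference among genes above 0 everywhere. Others, such as Mrpl9, Mrpl10, Mrpl3, Malsu1, Gfm1 and Tfam, were chosen after their values were seen. The alternatives were a pseudocount of 0.1, a minimum of 5 or none, 3 scalings, the highest transcript only, and genes at 0 left out. Columns not used: none.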

Additional observations from a re-analysis of the deposited data

Results flagged for a closer look

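Mrps5 and Mrps25 differed at least 2-fold in opposite directions under the same contrast. For overexpressing against normal cells, Mrps5 differed by 1.94 with LIF and by -1.33 after withdrawal, and Mrps25 by -1.42 and by 2.27. For withdrawal against LIF, Mrps25 differed by -2.51 in normal cells and by 1.18 in overexpressing cells. With 1 library per group these differences between cultures and between cell types were not tested. Mrps25 was listed at 0 in the normal withdrawal library, so its values there depend on the pseudocount of 1, and its exons overlap those of Nr2c2.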

How the results depend on the processing

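Of the alternative values for comparisons, 155 stayed and 11 did not stay within 1.5 times the count or 0.1 of the median. No direction of a median past 0.1 or of a single gene past 1.5-fold was reversed. The tolerance of 0.1 is close to the size of the largest medians. With quantile normalization the median for overexpressing against normal with LIF was -0.039 instead of -0.14. For withdrawal in normal cells it was -0.063 instead of -0.13. Both are among the 155, as are the limma counts of 0 in every setting. For single genes past 1.5-fold, 284 values stayed within 0.1 and 37 did not. With equal total FPKM, which moved the median of all genes by 0.103, the median for overexpressing against normal with LIF was -0.015, and 25 genes were highest in the normal library with LIF (23 with quantile normalization), instead of 39. With genes at 0 left out, counts in both directions were, for overexpressing against normal, 1 instead of 3 at 2-fold with LIF, and 4 instead of 7 at 1.5-fold and 2 instead of 5 at 2-fold after withdrawal. For withdrawal in overexpressing cells they were 1 instead of 3 at 1.5-fold and at 2-fold. For 40 days they were 6 instead of 10 at 1.5-fold and 4 instead of 7 at 2-fold against LIF, and 3 instead of 6 at 2-fold against withdrawal; these fall because genes were removed. Quantile normalization moved the median of all genes by -0.111 and -0.125 in the 40 day comparisons. In every setting run the median of the mitoribosomal genes stayed below that of all genes there, by 0.125 to 0.224 against LIF and 0.113 to 0.245 against withdrawal. None of these settings compared genes of like level. Among genes with a mean of at least 20 FPKM the medians lay closer together than these spans. They were -0.198 and -0.095 against LIF, and -0.165 and -0.113 against withdrawal. Limma called 0 genes in every setting, where few or no calls could be made with 1 residual degree of freedom. The scalings of the lowest and highest library were chosen after the data were seen. No paired analysis was possible because each group has 1 library and the labels give no replicate numbers. Depth per library is unknown, and no value has a replicate.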
